A study of Homo sapiens with 2 samples.

Results

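Transcripts of 47 genes that copy DNA were compared between a control array and an FDFT1 array of the CL1-0 line. The genes were chosen by function, with earlier results of these data known. They encode the 6 subunits of the MCM helicase, the 6 of the origin recognition complex (ORC), the 4 of GINS, the 5 of the clamp loader RFC, the 3 of RPA, 9 subunits of the replicative polymerases and primase, and the factors that load the helicase, process the new strands, supply nucleotides, rebuild chromatin and drive entry into S phase. Every probe set whose platform annotation lists exactly 1 of these symbols was taken, which gave 90 probe sets of the 54613 on the array and 47 genes of the 19775 with a probe set of their own.

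CL1-0 cells are an established culture model of human lung adenocarcinoma. The first sample expressed a control vector, the second an FDFT1 vector; FDFT1 encodes squalene synthase, the first enzyme committed to sterol synthesis. Both were stably transduced, selected in puromycin for 2 weeks and grown at 37 °C in 5% CO2, and the labels do not say whether either was a clone or a pool. FDFT1 itself was not analysed here, so its overexpression was not checked. Each group is 1 sample on 1 Affymetrix array, with no replicate, so every difference below compares those arrays and carries no p-value.

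Values are MAS5 signals, the linear intensities that the authors deposited. Differences are on the log2 scale, FDFT1 minus control, after the arrays were centred on their median difference of -0.11. As deposited, the median of all measured genes was at -0.11 too, so a difference between 0 and 0.11 turns negative without centring. A gene is represented by its brightest probe set. Its error is how far probe sets that share a gene differ at a like signal, 0.097 to 0.22 for the brightest probe sets of the 47 genes and larger for dimmer ones; it covers the probes and leaves out differences between cultures. Of the 9 alveolar type II markers 5 reached the median signal of 12.2 on either array and none reached the 75th percentile of 99.5, nor did any of 5 epithelial markers, so the labelled type II identity was not visible in its markers. SFTPA1, which is among the 9 type II markers, had no probe set listed for it alone and so could not reach either signal. None of 5 fibroblast, 3 endothelial and 5 blood markers reached 99.5 on both arrays either.

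DNA is copied once in each cell cycle. ORC marks origins, and CDC6 and CDT1 load the ring of MCM subunits onto them; kinases then recruit CDC45 and GINS, which turn the ring into a moving helicase. RPA coats the exposed strands, primase and polymerase alpha start each chain, RFC loads the sliding clamp PCNA, and polymerases epsilon and delta extend the leading and lagging strands. Many of these genes are transcribed ahead of S phase by E2F factors, which pocket proteins of the retinoblastoma family hold in check.

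Replication transcripts gave high signals on both arrays and differed little. All 47 genes had signals of at least 99.5 on both arrays. None was 2-fold or even 1.5-fold different, against 1.14% and 7.18% of all 12962 measured genes. At a like signal such differences were rarer. At log2 signals of 7 to 9, 9 to 11 and above 11, where the 47 genes lay, 1.5-fold was reached by 96 of 3657, 18 of 2657 and 1 of 944 genes. The differences ran from -0.30 for POLD1, the catalytic subunit of polymerase delta, to 0.34 for PRIM2, the large primase subunit, on the probe set listed for it alone. Of the 47 genes 37 lay within 0.25 of 0, or 78.7%, and the background was 66.8% of all genes and 78.4% of the 7889 genes with a mean signal of at least 99.5. The genes were therefore about as close to 0 as other genes of high signal.

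On their brightest probe sets more of the genes were below 0 than above it, by small amounts. Of the 47, 28 (59.6%) were below 0 and 19 (40.4%) above. The median was -0.049 and the mean -0.010. Of all measured genes 50.2% were below 0 and 49.8% above. Their median was -0.0013 and their mean 0.0022. The 28 stayed below 0 under each of 4 scalings (centred, as deposited, quantile and loess), which 48.7% of all genes did. Part of this was fixed in advance, since using the values as deposited moved each of the 47 genes by -0.11 and could raise none. Another 11 (23.4%) stayed above 0, against 32.4% of all genes, and 8 turned from positive to negative when the values were used as deposited. These 8 were MCM6, CDT1, ORC3, ORC4, POLD3, RRM2, TYMS and CCNE2. Without the probe sets of the _x_at and _s_at kinds, which can match several transcripts, 36 genes were left and 18 were below 0. Their median was -0.0026, so the uneven split was not seen under that setting. The share of cells in S phase and the RNA per such cell were not part of these data. Differences in either cannot be told apart here from disagreement between probe sets or between the arrays, and no cause was tested.

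**Figure D1:**
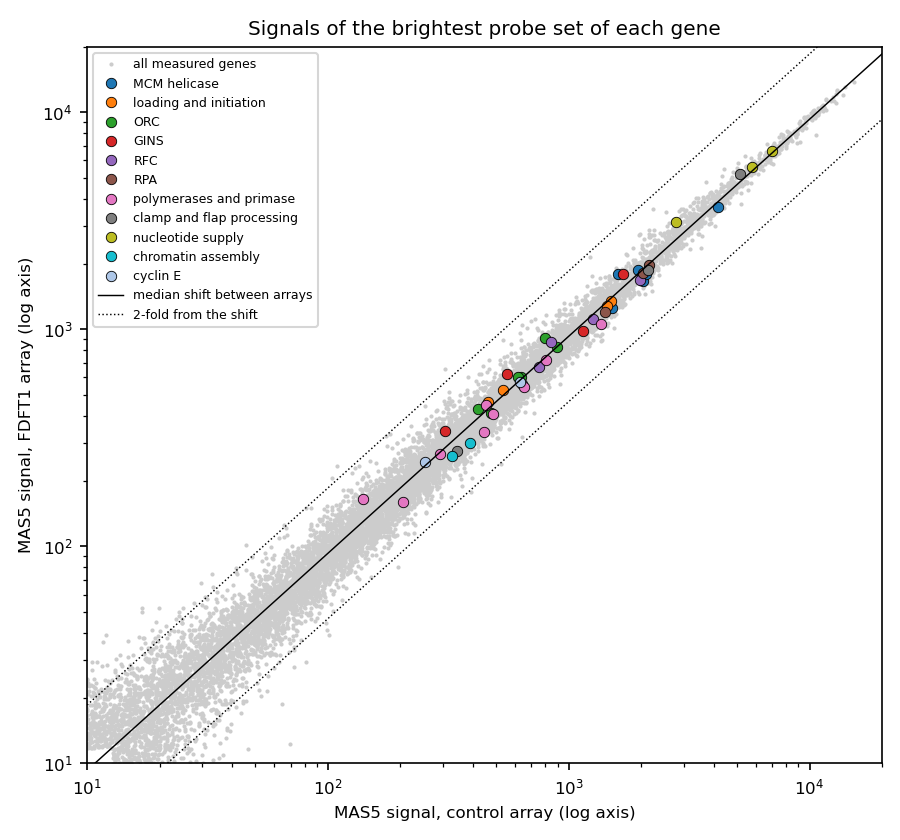
MAS5 signal of the brightest probe set of each gene on the control array (horizontal, log axis) and on the FDFT1 array (vertical, log axis), as deposited; grey points are all measured genes, coloured points the 47 replication genes by group, the solid line is the median shift between the arrays and the dotted lines are 2-fold from it. All coloured points lie above a signal of 99.5 on both axes and inside the 2-fold lines.

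Differences exceeded the spread between probe sets about as often as over all genes. By that measure, after centring, 15 of the 47 genes (31.9%) were past 1 error, 8 higher and 7 lower, and the background was 33.1%. Only RRM1, the large subunit of ribonucleotide reductase, was past 2 errors, where the background was 7.24%. Its second probe set lay at -0.033. These results depend on the centring. As deposited RRM1 was at 0.16 (error 0.097), no longer past 2 errors, and POLD2 at -0.36 (error 0.16) was past 2.

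Promoter sequences show letters that some of these genes share. RefSeq start sites on GRCh38.p14, with 250 bases before and 50 after each, were found for 40 of the 47 genes. They were searched on both strands for TTTCGCGC and TTTGGCGC, here called the E2F-type letters, and a gene was counted once however many matches it held. Other E2F-type forms were not searched, so a gene without a match may still hold such a form. The CCAAT letters were searched the same way. A match was found in 10 of the 40 genes (25.0%), against 382 of all 27305 genes in the table (1.40%) and 252 of the 10508 measured ones (2.40%). CCAAT, the letters of the NF-Y box, was in 23 of the 40 (57.5%), in 39.7% of all genes and in 43.2% of the measured ones. The matches are shown to make the shared letters visible, as 30 bases read 5′ to 3′ on the strand of the gene, with the E2F-type letters in capitals.
MCM2: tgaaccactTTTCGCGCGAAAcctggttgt
MCM3: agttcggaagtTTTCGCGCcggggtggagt
MCM6, distal: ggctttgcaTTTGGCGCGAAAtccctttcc
MCM6, proximal: ttggtcaggTTTGGCGCGAAAtctccagct
MCM7: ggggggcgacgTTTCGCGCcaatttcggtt
CDC6: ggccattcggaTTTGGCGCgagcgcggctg
GINS1: agctttgttcgGCGCCAAAgcgcggagcgg
POLA1: gtcatcacaggGCGCCAAAcgcgcgtccgc
POLA2: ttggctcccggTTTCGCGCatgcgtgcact
POLE: tgggtgggagcGCGCCAAAtttctcccctg
POLE2: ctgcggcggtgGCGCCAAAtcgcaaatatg
In MCM2 the letters form a palindrome, so TTTCGCGC reads on each strand. At both places in MCM6, TTTGGCGC on the strand of the gene overlaps TTTCGCGC on the opposite strand.

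The windows lie at chr3:127598404-127598433 (plus strand) for MCM2, chr6:52284728-52284757 (minus) for MCM3, chr2:135876575-135876604 and chr2:135876513-135876542 (minus) for MCM6, chr7:100101388-100101417 (minus) for MCM7 and chr17:40287875-40287904 (plus) for CDC6. Those of the others are chr20:25407667-25407696 (plus) for GINS1, chrX:24693770-24693799 (plus) for POLA1, chr11:65261898-65261927 (plus) for POLA2, chr12:132687342-132687371 (minus) for POLE and chr14:49688201-49688230 (minus) for POLE2. Counted from the start site, the matches of MCM7, POLE, POLA2 and POLA1 begin at -9, -18, -53 and -137, all upstream. Those of MCM2, GINS1 and CDC6 begin at 3, 6 and 8, inside the transcript, and those of MCM3 and POLE2 span the start.

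MCM6 holds its 2 E2F-type stretches and its CCAAT boxes within 119 bases, at chr2:135876489-135876607 on the minus strand, from -164 to -46. The boxes flank the proximal E2F-type stretch and lie farther from the distal one. Capitals mark the E2F-type letters and the CCAAT box, here read as ATTGG.
MCM6: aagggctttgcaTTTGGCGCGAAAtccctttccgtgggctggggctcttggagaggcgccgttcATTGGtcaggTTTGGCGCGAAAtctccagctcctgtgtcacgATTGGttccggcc
A match of letters is a description of the sequence and not a site shown to be bound.

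The 10 genes with a match had differences from -0.26 for POLE to 0.21 for GINS1. Of them 8 were below 0 and 2 above, with a median of -0.11, and the 30 genes without a match had a median of -0.026. Over all measured genes in the table the medians were -0.017 with a match (252 genes, 141 below 0) and -0.0016 without. Of the 10 replication genes, MCM2, POLE and GINS1 exceeded their errors, in both directions, and the split by match was not tested.

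The MCM subunits form the ring that unwinds DNA, and their transcripts did not move as a block. The 6 genes had a median of -0.096, with 4 below 0 and 2 above. MCM2 gave a signal of 2040.5 on the control and 1666 on the FDFT1 array, a difference of -0.19 (error 0.16) that was the lowest of the complex, on its only probe set. MCM3 was at 1507 and 1252 (-0.16), also with 1 probe set.

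MCM5 was lower on both of its probe sets, from 2099 to 1804 (-0.11) on the brighter and from 729 to 615 (-0.14) on the other. MCM7 was at -0.080 (4156 to 3653), while its second probe set lay at 0.0040. MCM6 was at 0.071 (1931 to 1884), one of the values that turn negative as deposited, and its dim second probe set at 0.25 (43.7 to 48.5, error 0.30). On their brightest probe sets these subunits lay within 0.19 of 0 after centring, but as deposited MCM2, MCM3 and MCM5 were at -0.29, -0.27 and -0.22.

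MCM4 was the highest of the complex and the least settled. Its brightest probe set read 1603 and 1807, a difference of 0.28 (error 0.16). The next read 1373 and 1279.7 (0.0049), another 646 and 625 (0.058) and the dimmest measured one 152 and 123 (-0.21). A value above 0 by more than the error was thus found on 1 of 4 measured probe sets, and the mean over the 4 was 0.034.

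ORC, the origin recognition complex, stayed close to 0 apart from its smallest subunit. The 6 genes had a median of 0.053, which was -0.053 as deposited and -0.025 without _x_at and _s_at probe sets. ORC6 read 799.5 and 916 (0.30, error 0.16), the highest of the complex, on 1 probe set of the _x_at kind. ORC1, the ATPase subunit whose level varies over the cell cycle, was the lowest at -0.093 (474 to 413, error 0.22).

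Between these lay the other ORC subunits. ORC2 was at 0.13 (419 to 427), with its second probe set at -0.17 (175 to 144). ORC3 was at 0.031 (634 to 602), ORC4 at 0.076 (616 to 603) and ORC5 at -0.010 (898 to 828). The second probe sets of ORC4 and ORC5 had the opposite sign, at -0.040 (62.3 to 56.3) and 0.16 (571 to 592), and the mean for ORC5 was 0.074. None of these exceeded its error.

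The factors that load and fire the helicase gave no common direction, with a median of 0.016 over 4 genes. CDC6, the loading ATPase, read 1502 and 1344 (-0.054) and its other probe set lay at 0.028. CDT1, its partner, read 532 and 525 (0.087, error 0.16) on an _x_at probe set but 373 and 262 (-0.40, error 0.22) on the other. CDC45, which joins the helicase at firing, was at 0.11 (462 to 464, error 0.22) on 1 probe set and was the highest of the 4.

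MCM10, which helps start the assembled helicase, was the lowest of the 4 on its brightest probe set, at -0.072 (1449 to 1280.1). Its other probe sets were nearly as bright and lay the other way, at 0.33 (1096 to 1280.3) and 0.43 (867 to 1086), each with an error of 0.16. The mean over its 3 probe sets was 0.23. The sign given for MCM10 therefore rests on the choice of probe set, and without _x_at and _s_at probe sets the median of the 4 genes moved to 0.18.

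GINS, the ring of 4 subunits that joins CDC45 on the helicase, had the highest median of the 11 groups, 0.24. It ranged from 0.13 as deposited to 0.27 without _x_at and _s_at probe sets and was above 0 in every alternative run, although not through the same genes. With averaged probe sets GINS4 turned to -0.080 and GINS2 to 0.25, and without _x_at and _s_at probe sets GINS2 was taken from a dim probe set at 0.49. GINS1 read 1679.5 and 1802 (0.21, error 0.16) on its only probe set. GINS3 was the highest, with 554 and 622 (0.27, error 0.16), and its second probe set lay at -0.033 (519 to 471).

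GINS4 read 305 and 341 (0.27, error 0.22). Its dimmer measured probe sets lay at 0.11 and at -0.61 (48.6 to 29.5, error 0.30). That last value was the only one of the 84 measured replication probe sets at least 1.5-fold from 0. The background was 9.23% of measured probe sets of any signal, with no share at a like signal taken. GINS2 went the other way at -0.12 (1143 to 978, error 0.16), while its dim probe sets were at 0.49 (32.8 to 42.9) and 0.36 (24 to 28.7). Of the 4 GINS genes, 3 were thus above 0 by more than 1 error on the brightest probe set, and 2 of those had another measured probe set below 0.

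**Figure D2:**
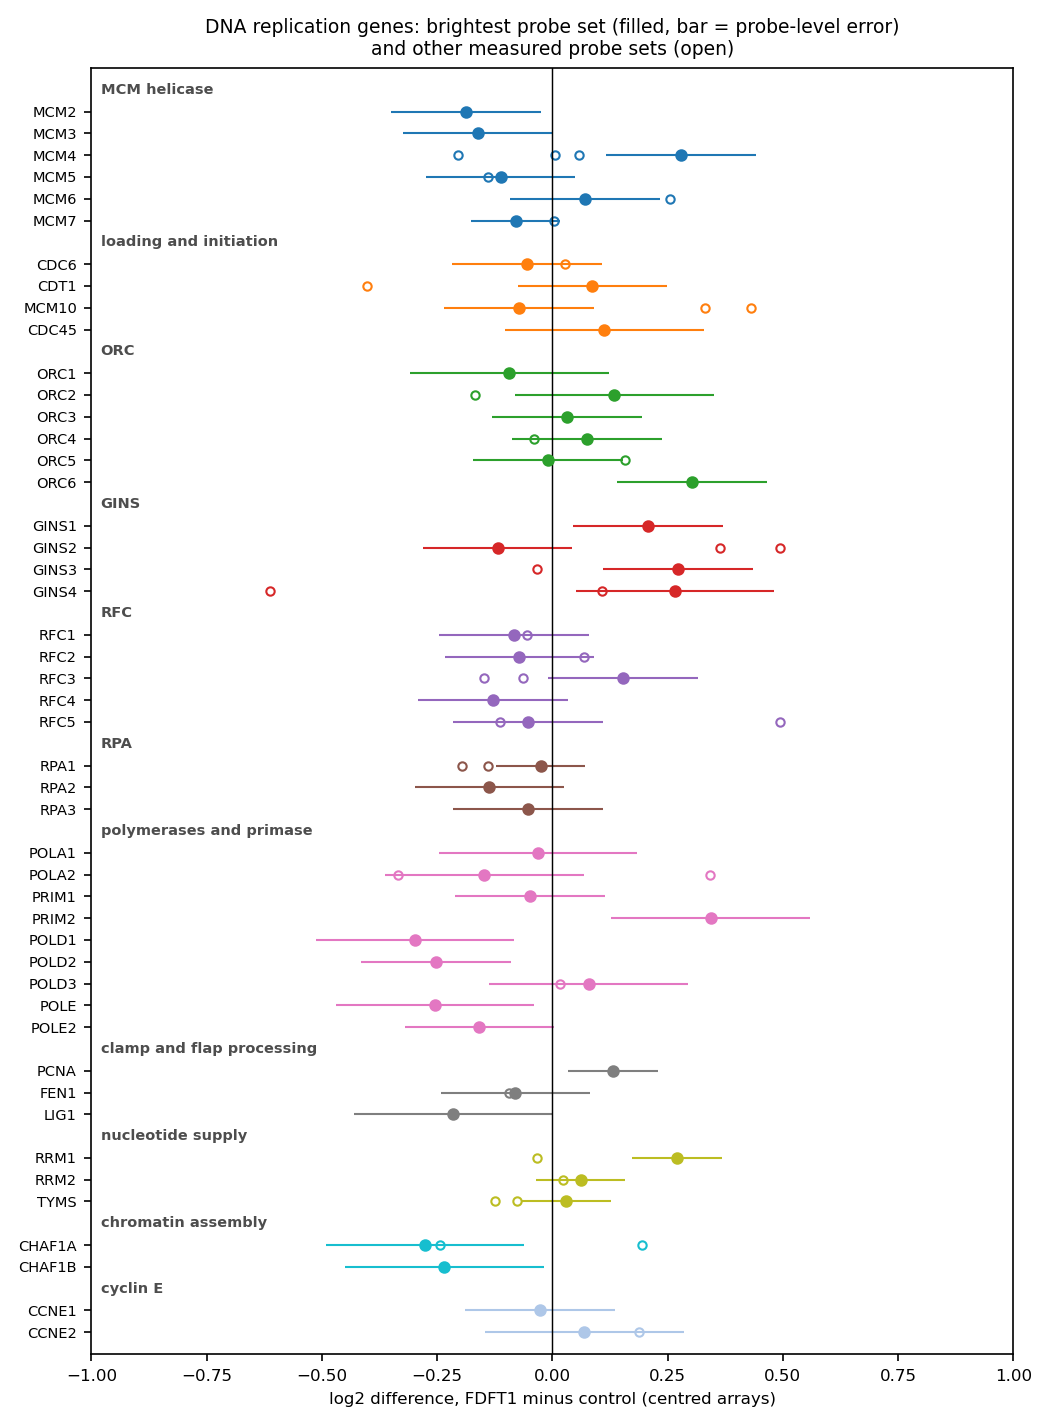
Log2 difference between the FDFT1 and control arrays (horizontal) for each of the 47 replication genes (rows, by group); filled points are the brightest probe set with its probe-level error as a bar, open points the other measured probe sets. Filled points lie between -0.30 and 0.34. Farthest to the left are POLD1, POLD2, POLE, CHAF1A and CHAF1B. Farthest to the right are PRIM2, ORC6, MCM4, RRM1 and the GINS genes other than GINS2.

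Among the polymerases and primase, 7 of 9 genes were below 0, and the median was -0.15. The median was -0.049 when a gene's probe sets were averaged and -0.040 without _x_at and _s_at probe sets. Polymerase delta, which extends the lagging strand, had its catalytic subunit POLD1 at 445 and 336 (-0.30, error 0.22), the lowest value of all 47 genes. Its second subunit POLD2 read 1358 and 1059 (-0.25, error 0.16). POLD3, the subunit that binds PCNA, was at 0.079 (455 to 446) and at -0.027 as deposited.

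Polymerase epsilon, the leading-strand enzyme, was lower on both listed subunits. POLE, its catalytic subunit, read 205 and 159.6 (-0.26, error 0.22) and POLE2 655 and 545 (-0.16, error 0.16). Each of POLD1, POLD2, POLE and POLE2 had 1 probe set, so no second probe set bears on them. Of the 4, POLE2 alone was within its error. The further epsilon subunits POLE3 and POLE4 stand in the list of other replication genes and were chosen for mention after their values were seen. On their brightest probe sets POLE3 was at 0.035 (error 0.097) and POLE4 at 0.012 (error 0.16). As deposited these were at -0.071 and -0.094.

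The polymerase alpha and primase genes, which together make the primers, ended at opposite sides of 0. POLA1, the catalytic subunit, was at -0.031 (292 to 265) and PRIM1, the small primase subunit, at -0.049 (807 to 725). POLA2 read 483 and 406 (-0.15, error 0.22), with dim probe sets at 0.34 and -0.34 in signals under 24. PRIM2 was the highest value of the 47 genes, from 140.5 to 166 (0.34, error 0.22), on its only probe set listed for PRIM2 alone. Of the 4 probe sets listed for PRIM2 together with PRIM2BP, which were left out of the gene values, the brighter read 181 and 182 (0.11) and 148 and 143 (0.058). At a like signal these lay closer to 0.

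RPA, the protein that coats unwound strands, had all 3 subunits below 0 under each scaling, of which the as-deposited one could only lower them. After centring all were within their errors; as deposited, RPA1 at -0.13 and RPA2 at -0.24 exceeded theirs. RPA2 read 1416 and 1197 (-0.14, error 0.16) and was the lowest. RPA1 was at -0.025 (2164 to 1976), with its other probe sets at -0.14 (1396 to 1177) and -0.20 at a signal near the floor of 12.2. RPA3 was at -0.052 (2029 to 1818).

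The clamp loader RFC had 4 of 5 genes below 0 and a median of -0.071, or 0.0086 without _x_at and _s_at probe sets. RFC4 was the lowest at -0.13 (1977 to 1679.8, 1 probe set). RFC1, the large subunit, was at -0.084 (641 to 561) with its second measured probe set at -0.054. RFC2 was at -0.071 (1258 to 1112) on the brighter and 0.070 (944 to 920.1) on the other.

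RFC3 was the highest of the loader subunits, at 0.15 (845 to 873, error 0.16), while its other probe sets lay at -0.064 and -0.15. RFC5 was at -0.052 (751 to 673) on the brightest, at 0.49 (401 to 524, error 0.22) on the next and at -0.11 (391 to 336) on the dimmest. The probe sets of both genes disagree in sign.

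PCNA, the clamp that tethers polymerases, read 5119.9 and 5211 (0.13, error 0.097), and was higher under all 4 scalings, by 0.025 as deposited. FEN1, the flap endonuclease that trims Okazaki fragments, was lower on both probe sets, at -0.080 (2129 to 1871) and -0.093 (1929 to 1679.8). LIG1, the ligase that seals them, was at -0.22 (343 to 275, error 0.22) on 1 probe set. After centring PCNA exceeded its error, FEN1 was within its own on both probe sets, and the size of the LIG1 difference about equalled its error.

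The 3 genes of nucleotide supply among the 47 were above 0, although RRM2 and TYMS turned below it as deposited. RRM1 read 2784 and 3119 (0.27, error 0.097) on its brighter probe set and 754 and 685 (-0.033, error 0.16) on the other. RRM2, the small subunit that limits ribonucleotide reductase in S phase, was at 0.061 (5757 to 5580.1) and 0.022 (4207 to 3969). TYMS, the thymidylate synthase, was at 0.030 (6960.3 to 6604) and -0.077 (2907 to 2560.0) on its bright probe sets. Of the 3, only RRM1 exceeded its error, on 1 of 2 probe sets. Further genes of nucleotide supply, TK1 and DUT, stand in the list of other replication genes and were chosen for mention after their values were seen. TK1, the thymidine kinase, was lower on both probe sets, at -0.23 (1654 to 1311) and -0.28 (1276 to 974), each with an error of 0.16. DUT, the dUTPase, was at -0.00058, -0.14 and 0.26 from its brightest to its dimmest probe set.

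Chromatin assembly factor 1, which deposits histones behind the fork, was lower on both listed subunits, the lowest median of the 11 groups at -0.26. CHAF1A read 390.0 and 299 (-0.28, error 0.22) on the brightest probe set and 217 and 169.9 (-0.24) on another, but 262 and 278 (0.19) on an _x_at probe set. CHAF1B read 329 and 259.6 (-0.23, error 0.22) on its only probe set. The median stayed below 0 in every alternative run, between -0.36 as deposited and -0.17 with averaged probe sets.

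Cyclin E, the partner of CDK2 at the start of S phase, was close to 0 in both forms. CCNE1 read 627 and 572 (-0.026) and CCNE2 252 and 246 (0.069), with a second CCNE2 probe set at 0.19 (88 to 93.1). Neither exceeded its error.

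**Figure D3:**
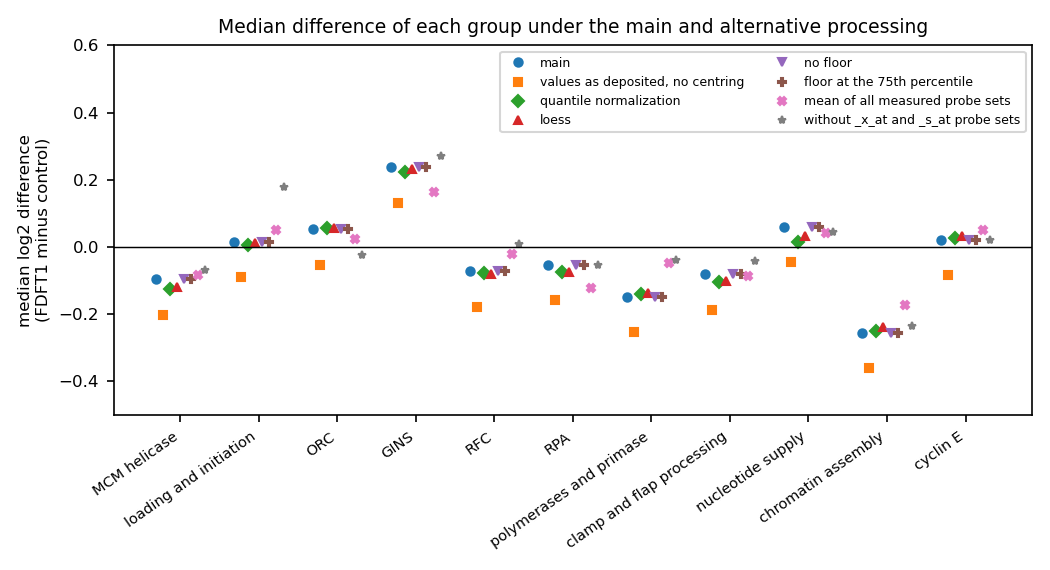
Median log2 difference, FDFT1 minus control (vertical), of each of the 11 gene groups (horizontal) under the main processing and 7 alternatives (symbols). The medians of GINS stay above 0 and those of the MCM helicase, RPA, the polymerases and primase, clamp and flap processing, and chromatin assembly stay below it, while those of ORC, loading and initiation, nucleotide supply and cyclin E cross 0 when the values are used as deposited.

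Probe sets of the same gene gave a second look at 26 of the 47 genes. In 8 of these (30.8%) all measured probe sets lay on the same side of 0, against 40.9% of the 6529 measured genes with several. All were above 0 for MCM6, POLD3, RRM2 and CCNE2 and below 0 for MCM5, RFC1, RPA1 and FEN1. None of those 8 exceeded its error. Over 19 genes with at least 2 probe sets of high signal (99.5 or more), the differences of a gene's probe sets spanned 0.17 in the median and up to 0.61, in RFC5. The difference of the brightest probe set was smaller in size than 0.17 for 33 of the 47 genes.

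The E2F and pocket protein genes control transcription of many replication genes. Their differences ran from -0.50 to 0.82, a wider range than the -0.30 to 0.34 of the 47 replication genes; the difference in range was not tested. All 13 were measured, 7 of them above 0, and their median was 0.068. At least 1.5-fold higher were 2 of the 13, RBL2 and RB1, where the background was 3.9% of all genes and 1.12% of genes with a mean signal of at least 99.5. When the probe sets of a gene were averaged, neither reached 1.5-fold. The list was chosen with earlier results of these data known, so these shares describe it and are no test.

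RB1, the retinoblastoma protein, read 575 and 857 (0.68, error 0.16) and its second, dim probe set 12.8 and 15.4 (0.37). RBL2, which encodes the related pocket protein p130, read 176 and 289.8 (0.82, error 0.22), but its second probe set read 25.9 and 22.2 (-0.12, error 0.49). RBL1, which encodes p107, was at 0.35 (145 to 172, error 0.22) and its dim probe sets at -0.059 and -0.68. All 3 pocket protein genes were higher on the brightest probe set under each scaling, and RB1 alone was higher on all of them.

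The activating factors were lower for E2F1 and E2F2. E2F1 read 177 and 116 (-0.50, error 0.22) and, on its second probe set, 95 and 79.1 (-0.16, error 0.30). E2F2 was at -0.39 (392 to 278, error 0.22), with dim probe sets at 0.22 and 0.066. E2F3, the remaining activator, was at 0.32 (796 to 924, error 0.16) and was chosen for mention after its values were seen, outside the rule for named genes. E2F7, a repressor of the family, was at -0.31 (349 to 263, error 0.22) on its only measured probe set.

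**Figure D4:**
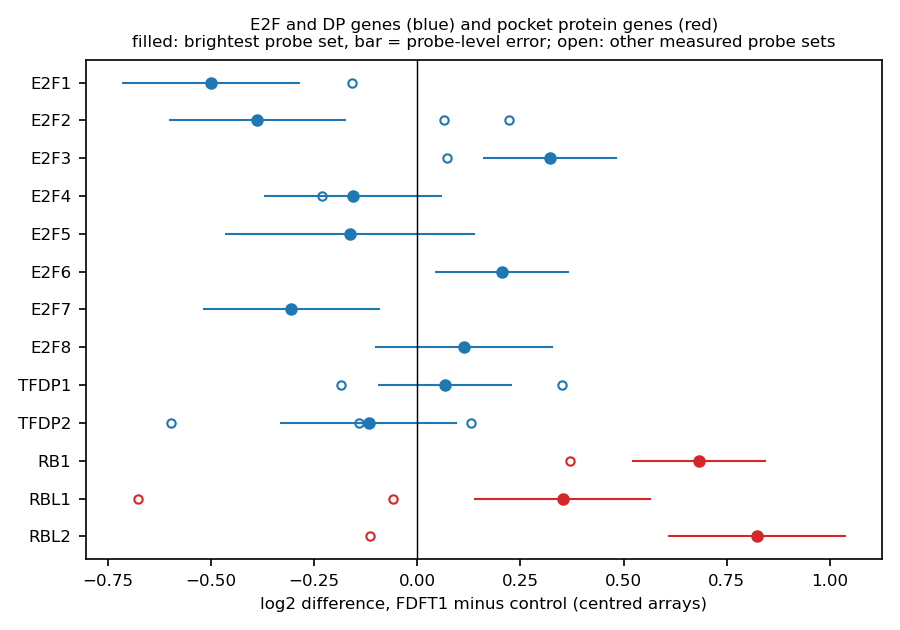
Log2 difference between the FDFT1 and control arrays (horizontal) for the E2F and DP genes (blue) and the pocket protein genes (red); filled points are the brightest probe set with its probe-level error as a bar, open points the other measured probe sets. RB1 and RBL2 lie farthest to the right, at 0.68 and 0.82, and E2F1 farthest to the left among filled points, at -0.50.

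Other replication and S phase genes were also centred near 0. Of 41 listed genes 40 were measured, and 21 of those lay above 0; the median was 0.011. The sign of that median turned with the scaling, to -0.095 as deposited, with 11 genes higher and 29 lower, -0.018 with quantile normalization and -0.0042 with loess. At least 1.5-fold different were 2 of the 40, where the background in either direction was 7.18% of all genes. Both were lower, and 3.28% of all genes were lower by as much. POLD4, the smallest subunit of polymerase delta, read 106 and 62.2 (-0.66, error 0.30), and CHTF18, which builds an alternative clamp loader used in sister chromatid cohesion, read 213 and 128 (-0.62, error 0.22), each on 1 measured probe set.

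RECQL4, a helicase of replication initiation, came next at -0.41 (236 to 166, error 0.22), with a second probe set at -0.0071 (193 to 179). The highest were RNASEH2B, a subunit of the enzyme that removes ribonucleotides from DNA, at 0.33 (68.1 to 79.5, error 0.30), WDHD1, which links the helicase to polymerase alpha, at 0.29 (161 to 183, error 0.22), and CDK2 at 0.19 (1356 to 1435, error 0.16). RNASEH2B had a dimmer probe set on the other side of 0, at -0.068 (39.1 to 34.6, error 0.30). The other WDHD1 probe sets lay at 0.093 and 0.59, each with an error of 0.30. A second bright CDK2 probe set was as far below 0, at -0.19 (726 to 592, error 0.16), and the mean over the CDK2 probe sets was -0.048. With POLD4, 3 of the 4 polymerase delta genes were below 0.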

How the data were processed

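RNA from 1 control sample and 1 FDFT1 sample of CL1-0 was measured on 1 array each, from 6 µg of total RNA. The deposited values are signal intensities on a linear scale that the authors made with MAS5, per the submitters' processing notes; its version and scaling target, and any detection calls, were not given in the sources used here. Precision is limited by the number of arrays.

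The analysis used pandas 2.3.3, numpy 2.4.6, statsmodels 0.14.6 and Python 3.11.15: 62 control probe sets were set aside, log2 signals were centred, values under the median signal (12.2) were raised to it, and a gene took its brightest probe set. A probe set was measured if either centred signal reached 12.2. The probe-level error is the SD of the difference between a gene's 2 brightest probe sets over the square root of 2, within 5 signal ranges. Genes came from the platform annotation, which may be old. All 47 genes could be named; of other lists, up to 3 genes each way were. Members and lists were chosen with earlier results of these data known. The steps were tested on simulated data. The alternatives tried were other scalings, no floor or a floor of 99.5, the mean of probe sets, and leaving out _x_at and _s_at probe sets.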

Additional observations from a re-analysis of the deposited data

How the results depend on the processing

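No 2-fold or 1.5-fold difference appeared among the 47 replication genes under any of the 7 alternatives. With the values as deposited, 11 of the 47 were above 0 in place of 19, and in the list of other replication and S phase genes 11 were higher and 29 lower. Without _x_at and _s_at probe sets, 18 of the 47 genes were lower, the loading and initiation genes had a median of 0.18, and 12 of the other replication genes were lower; fewer genes were left under this setting. With the floor at 99.5, 1 of the other replication genes was at least 1.5-fold different, since POLD4 moved to the floor, and with averaged probe sets 0 of the E2F and pocket protein genes were. Of the 77 group medians recomputed, 76 moved by less than 0.16, the error of a probe set, and 6 changed sign. Of 318 values of single genes, 301 moved by less than their error and 23 changed sign. Much of this was fixed in advance. All 47 genes had signals of at least 99.5 on both arrays, so neither floor setting could change their values. Using the values as deposited moved each gene by the same shift of -0.11. Most group medians were also smaller in size than 0.16, so these counts do not show that the medians hold. No paired analysis was possible because each group has 1 sample. With 1 array per group, a difference between cultures cannot be separated from one between vectors, and a change smaller than the probe-level errors, 0.097 to 0.22 for the brightest probe sets of the 47 genes, could not be told from disagreement between probe sets.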

Other observations

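Of the 90 replication probe sets 6 did not reach the floor of 12.2 on either array after centring and have no difference: they read 6.0 and 8.15 (MCM4), 9.64 and 8.59 (ORC5), 12.6 and 10.8 (GINS4), 0.729 and 4.4 (RFC1), 1.44 and 5.97 (CHAF1A) and 0.756 and 0.458 (CCNE1) on the control and FDFT1 arrays.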
